A study of Mus musculus with 24 samples.

Results

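Liver gene expression was compared between WSB/EiJ and A/J males that had been kept on a methyl-adequate control diet, so that the compared groups differ in strain and not in diet. The members are the 8 arrays of those groups, 4 livers of each strain, of 24 arrays in the series. The series also holds C3H/HeJ livers and, for each strain, livers from a diet low in methionine and without choline or folic acid. Both compared groups were 20 weeks old at sampling. They had eaten the control diet for 12 weeks from the age of 8 weeks, and it was the iron-supplemented, l-amino acid-defined base of the deficient diet supplied with folic acid at 2 mg/kg, with choline bitartrate at 0.3% and with 0.4% of methionine. A/J is a classical albino inbred strain, and WSB/EiJ is an inbred strain derived from wild house mice of the subspecies domesticus. The labels give no time of day and do not state that the replicates are separate animals, so the p-values below reflect only how these samples vary, and that variation may be technical.

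Inbred strains differ at many positions in regulatory and coding DNA, and the liver is a tissue in which such differences reach genes of drug, steroid and lipid metabolism as well as genes of resident immune cells. Male and female mouse livers differ in many genes through the pulsed or steady release of growth hormone, and Kupffer cells, the macrophages that line the liver sinusoids, contribute a small share of the RNA. An array measures a gene through a short probe, so a strain variant or a changed exon under the probe can alter the signal with or without a change in the amount of RNA. For that reason the probes of a gene are set beside each other wherever a gene had several.

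Each gene is given here by its brightest probe, as a level on the log2 scale after every array was scaled to its own 75th percentile and shifted by a common constant, and differences are WSB/EiJ minus A/J ± the standard error of the limma fit with n = 4 arrays a strain. The share of gene spots that stood well above background ranged from 44.4% to 51.2% over the 8 arrays. Albumin (Alb), the most abundant hepatocyte plasma protein, had levels of 18.65 to 19.14 in A/J and 18.85 to 18.96 in WSB/EiJ, a difference of 0.01 ± 0.11 (adjusted p = 0.939). A/J replicate 4 stood farthest from its group, and results that turn on it are given without it as well. The arrays lay on 3 slides, each with both strains, and within single slides 99.4% to 99.9% of the genes that passed the test had the same sign as in the whole comparison. Those genes were called on the same 8 arrays, so this agreement follows largely from their choice and is no separate check on slides.

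A difference between the strains was called in about as many genes as not. Of 14013 genes tested, 7110 passed the threshold of an adjusted p under 0.05 (50.7%), of which 4387 were higher (31.3% of the tested) and 2723 lower (19.4%) in WSB/EiJ. The values of the strains did not overlap in 6879 genes (49.1%). Most differences were small, and 2439 of the genes that passed differed by less than 0.5 on the log2 scale. At least 4-fold higher in WSB/EiJ were 344 genes (2.45%) and at least 4-fold lower were 349 (2.49%), so that large differences fell equally on both sides. The excess of small differences towards WSB/EiJ rests on the scaling: 61.7% of called genes were higher as scaled here, 70.1% after centring on the median, 50.1% after quantile normalization, 49.2% after normexp background correction with quantile normalization and 27.7% after scaling to the spike-in controls. The median of all tested genes moved from 0.10 to 0.20, 0.002, -0.003 and -0.20 under these same choices. Differences below about that size have no settled sign and are read below against the median of 0.10. Larger ones can change sign too. After quantile normalization the median of the amino acid and unfolded protein stress list went from 0.382 to -0.026, and that of complement from 0.248 to -0.122. Counts of list members move with the scaling too. Many, but not all, of those that differ by over 1.5 times after quantile normalization or spike-in scaling are given. A count without such values may therefore still depend on the scaling. The share of called genes depends on the filter as well: without the background filter 6182 of 23859 genes passed.

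Several genes with alleles long known in A/J gave a check of the strain labels. Hc, which encodes complement C5 and carries a loss-of-function deletion in A/J, was 6.68-fold higher in WSB/EiJ (14.25, 14.38, 14.26 and 14.63 in A/J; 17.07, 17.16, 17.06 and 17.19 in WSB/EiJ; adjusted p = 6.42e-07). Dysf, which encodes the membrane repair protein dysferlin and is disrupted by a retrotransposon in A/J, was above background on no A/J array and on all WSB/EiJ arrays, at least 30.4-fold higher in the latter (adjusted p = 3.31e-07). Glo1, the glyoxalase that clears methylglyoxal and lies in a duplicated segment in A/J, was 3.04-fold lower in WSB/EiJ (difference -1.60 ± 0.13, adjusted p = 2.57e-05). The levels of each of these genes did not overlap between the strains. Both genes that were higher had levels in C3H/HeJ on the WSB/EiJ side, with means of 16.73 for Hc and 7.56 for Dysf. Ahr, Tyr and Naip5, whose known variants change the protein, did not pass, with differences of -0.41, -0.05 and -0.02. Cdh23, Tyrp1 and a were not tested, since they had no matched probe, or none that every array of at least 1 strain measured well above background.

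Among genes with several probes that all passed in the same direction and were above background on at least 3 arrays of each strain, the highest in WSB/EiJ over A/J was Nnmt, nicotinamide N-methyltransferase, which uses S-adenosylmethionine to methylate nicotinamide. Its levels were 6.76, 5.60, 7.22 and 7.86 in A/J and 12.69, 12.68, 12.84 and 12.67 in WSB/EiJ at chr9:48400368-48400427 (mm9, as in all probe positions that follow). The strains were far apart on every array, with a difference of 5.86 ± 0.41 (adjusted p = 1.19e-05). Fam171b, a membrane protein of unclear liver function, followed with 5.43, 3.59, 4.44 and 4.43 against 10.14, 10.05, 9.34 and 10.44 (difference 5.52 ± 0.38), and was above background on 3 of 4 A/J arrays. Bex1, an X-linked adaptor protein known from neurons and regenerating tissue, differed by 4.81 ± 0.20 and Dct, dopachrome tautomerase of the melanin pathway, by 4.07 ± 0.54. Dct varied most within A/J, with levels from 6.75 to 9.33 against 11.28 to 12.36 in WSB/EiJ, and its probes overlap in position. The maternally expressed long non-coding RNA Meg3 was higher by 3.41 ± 0.34 (4.67, 5.54, 4.56 and 6.08 against 8.32, 8.61, 9.06 and 8.52). Also higher on every probe were the chemokine Ccl27a (10.6-fold), the synaptic vesicle protein Syngr1 (8.84-fold), the small GTPase Arl4d (7.02-fold) and the long non-coding RNA 1500009C09Rik (6.61-fold). Mthfsd, named for its methenyltetrahydrofolate synthetase domain, belongs to this set by the rule, but its probes differed in size: 3.82 ± 0.15 at the brighter one and 0.35 ± 0.10 at the other.

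In the opposite direction the first of these genes was Acot3, a peroxisomal acyl-CoA thioesterase. Levels were 9.72, 8.80, 10.46 and 8.50 in A/J and 5.02, 3.89, 4.83 and 2.77 in WSB/EiJ (chr12:85400452-85400511), where 3 of 4 arrays were above background. Every A/J array was above every WSB/EiJ array, and the difference was -5.24 ± 0.58 (adjusted p = 0.000145). Cyp4a10 and Cyp4a31, fatty acid omega-hydroxylases that like Acot3 are known targets of PPAR-alpha, were lower by 8.18-fold and 7.76-fold, although their coding sequences are so alike that their probes may read each other. Ly6c1, a surface protein of monocytes and endothelium, had 12.27, 14.40, 12.54 and 12.74 in A/J and 9.84, 9.05, 9.27 and 9.01 in WSB/EiJ (12.9-fold lower). Ugt3a2, a UDP-glycosyltransferase, varied little within a strain, at 13.79 to 14.02 against 10.48 to 10.56, and differed by -3.34 ± 0.08 (adjusted p = 9.72e-08). The kinase Camk1d was 8.97-fold lower, the amino acid transporter Slc38a6 8.59-fold, the membrane protein Serinc2 8.13-fold and Ddah1, which degrades the nitric oxide synthase inhibitor ADMA, 7.74-fold. The clock output factor Dbp also met the rule, with 12.65, 12.59, 13.58 and 8.98 in A/J against 8.23, 8.13, 8.91 and 8.10. Its difference of -3.61 ± 0.88 became -4.60 without A/J replicate 4, the array that lies near the WSB/EiJ values.

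**Figure D1:**
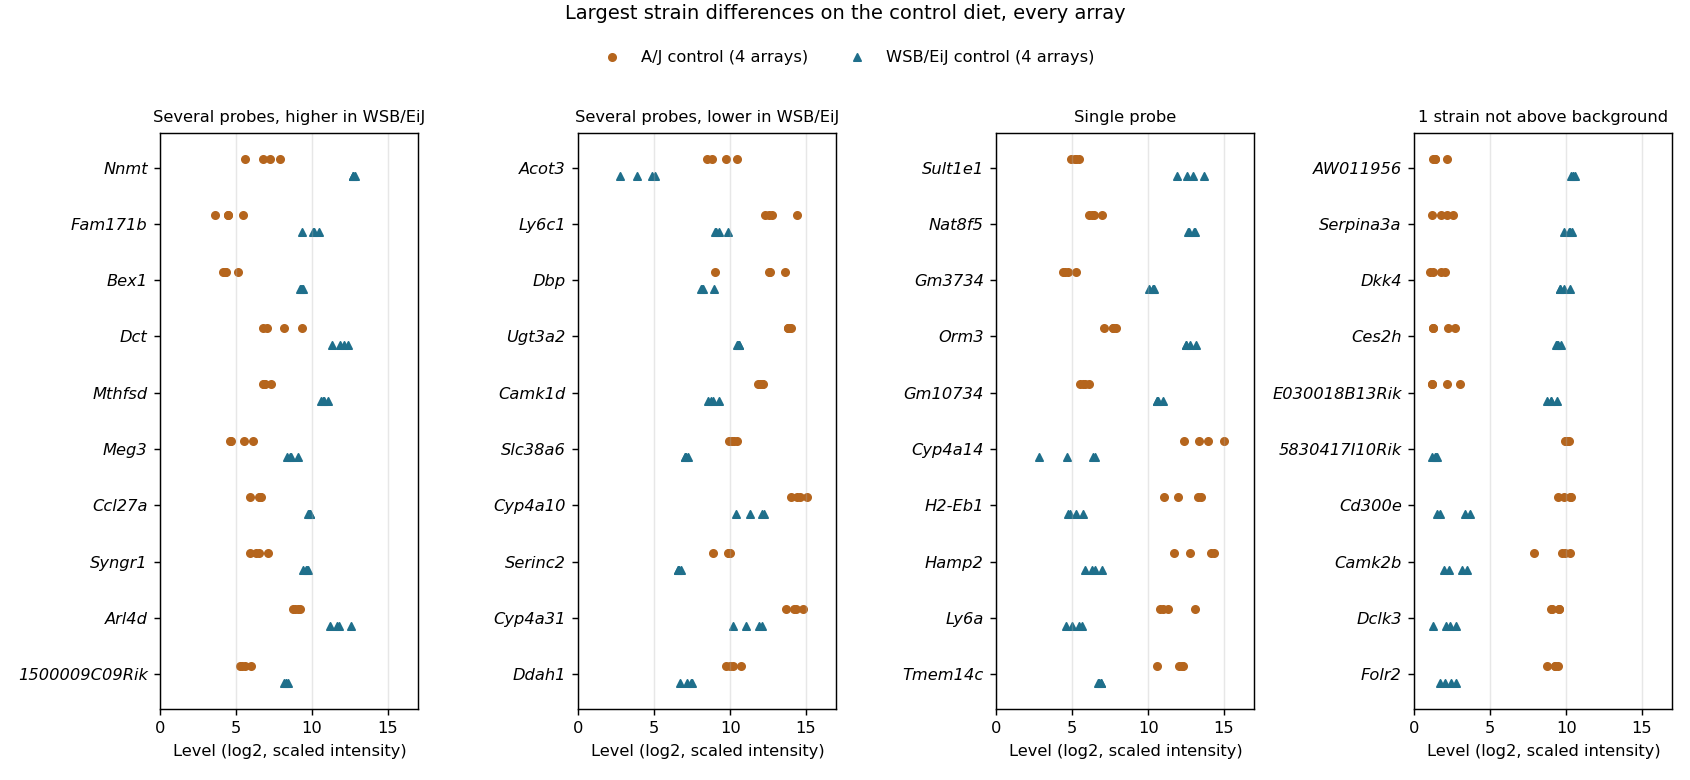
Levels (log2 scale) of named genes on each array, with A/J and WSB/EiJ control livers in separate colours and 1 point per array. Genes in the panels of higher and lower genes show no overlap between strains, and in the last panel 1 strain was not above background on any array.

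Genes with a single tested probe have no second probe to compare. Of those above background in both strains, the one highest in WSB/EiJ over A/J was Sult1e1, the estrogen sulfotransferase: 4.94, 5.42, 5.19 and 5.25 in A/J and 11.92, 12.94, 12.54 and 13.71 in WSB/EiJ (chr5:88005187-88005246), a 191-fold difference (adjusted p = 1.29e-06). Nat8f5, an N-acetyltransferase-family gene, was 84.3-fold higher, Orm3, an orosomucoid, 35.0-fold, and the unannotated Gm3734 and Gm10734 were 46.6-fold and 29.8-fold higher. Orm3 went beyond its neighbours of the same family, since Orm1 and Orm2 were each 1.95-fold higher. On the lower side stood Cyp4a14, an omega-hydroxylase, with 13.96, 12.36, 15.01 and 13.35 in A/J against 6.48, 4.67, 6.34 and 2.83 in WSB/EiJ, where 3 of 4 arrays were above background. The gap of -8.59 ± 0.86 (adjusted p = 8.48e-05) was far beyond the spread in either strain, and was -7.84 without WSB/EiJ replicate 4. H2-Eb1, the beta chain of the class II molecule H2-E, was 159-fold lower, Ly6a, the surface antigen Sca-1, 82.8-fold lower, and Tmem14c, a mitochondrial porphyrin transporter, 31.5-fold lower. Hamp2, a paralogue of the iron hormone hepcidin, was lower as well, with 14.17, 12.78, 14.34 and 11.69 against 5.86, 6.97, 6.33 and 6.50. Hamp itself was not among the genes that passed, with a difference of -1.25 ± 0.66 (adjusted p = 0.144) and a WSB/EiJ range of 10.29 to 13.35. Its difference was -0.56 without WSB/EiJ replicate 1.

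For some genes a strain gave no signal above background on any array, and only a lower bound of the fold can be given, taken against the weakest signals well above background. Such genes numbered 88 in A/J, all of which passed as higher in WSB/EiJ, and 141 in WSB/EiJ, of which 140 passed as lower. Genes were tested only if all 4 arrays of at least 1 strain were above background. These directions therefore follow largely from the filter and are no result of their own. WSB/EiJ exceeded A/J by at least 132-fold for AW011956, 109-fold for Serpina3a, a member of the alpha1-antichymotrypsin cluster, 84.7-fold for the Wnt inhibitor Dkk4, 66.6-fold for the carboxylesterase Ces2h and 49.7-fold for E030018B13Rik. The reverse held by at least 97.4-fold for 5830417I10Rik, 82.5-fold for the myeloid receptor Cd300e, 62.1-fold for the kinase Camk2b, 56.8-fold for the kinase Dclk3 and 53.5-fold for Folr2, the folate receptor of macrophages. The probe of 5830417I10Rik at chr3:88629840-88629898 lies next to the probes of Gon4l, which themselves disagreed. C3H/HeJ control livers, the third strain on the same diet, were also below background on all arrays for AW011956, Serpina3a and Ces2h. Over the 40 genes named by size, the mean of C3H/HeJ was nearer to A/J in 29 and nearer to WSB/EiJ in 11. The latter included Dct (12.87), Dkk4 (9.17), Gm10734 (10.75) and Camk2b (4.07). The same count was not made over all tested genes, so it is not read as particular to these 40.

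Where a gene had several probes, those that passed mostly had the same sign. Of 3691 genes with at least 2 tested probes, 979 (26.5%) had all probes passing in 1 direction, 636 higher and 343 lower, against 50.2% of single probes passing over the array. In 1154 genes (31.3%) no probe passed, and in 225 (6.1%) probes passed in opposite directions. Among genes whose brightest probe was at least 4-fold higher, 41 of 57 had every probe higher, and of those at least 4-fold lower, 46 of 58 had every probe lower. Comparing the brightest probe with the next brightest, both passed in 1244 genes and had the same sign in 1083 of these (87.1%). The gap between the extreme probes of a gene had a median of 0.28 and exceeded 2 in 177 genes (4.8%). The probes of 270 such pairs overlap in position and so are not separate measurements.

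The genes with the widest disagreement are shown by the first 30 bases of their probes, read 5′ to 3′ in the orientation deposited for the array, since these letters are what the RNA of each strain was measured with. The differences in levels are given with each sequence, and nothing in the sequences printed is marked as variant.
Timm9, chr12:72226471-72226530, difference 0.57: gggaacctacaataaacttacagaaacctg
Timm9, chr12:72236700-72236759, difference -6.31: cttccttgaggctagactttgaatcgggaa
Ola1, chr2:72931254-72931313, difference 0.40: aatgcatgttttacagtactccagatgtct
Ola1, chr2:72931276-72931335, difference 0.39: gctcctttttgaatctaaagataatgcatg
Ola1, chr2:72975628-72975687, difference -5.91: gatggtatactagtgcacatcatgaggacg
Anapc11, chr11:120466908-120466967, difference 0.40: ggttgaaaggagctttgctgactgttttgt
Anapc11, chr11:120468770-120468829, difference -5.53: caccgtgagcaccacaccaaaacaactcca
Adamts13, chr2:26852318-26852377, difference -3.66: tgttcgttgtgtgcagctagaccgtggcca
Adamts13, chr2:26862185-26862244, difference 3.66: atgcaggaagatgcctggcatgactttcag
Arsk, chr13:76199926-76199985, difference -1.14: ttggaccagaagcttcgttctattgtaaac
Arsk, chr13:76198809-76198868, difference 4.95: cagctgttggcattcccaccaataggtagc

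In Timm9, a chaperone of mitochondrial inner membrane import, the brighter probe had levels of 10.09, 10.26, 10.55 and 10.05 in A/J and 10.88, 10.73, 10.82 and 10.80 in WSB/EiJ, while the other probe was at 8.41 to 8.89 in A/J and above background on no WSB/EiJ array. The same arrangement held for Ola1, a cytosolic ATPase, and Anapc11, a subunit of the anaphase-promoting complex: the probes that were bright in both strains differed by at most 0.40, and a dimmer probe elsewhere in the gene was above background in A/J only. Adamts13, the protease that cleaves von Willebrand factor, had probes with opposite differences of the same size. Its probe at transcript position 3066 was at 7.36 to 7.95 in A/J and 3.32 to 4.58 in WSB/EiJ, and the probe at position 3891 was above background on no A/J array and at 5.31 to 5.89 in WSB/EiJ. Arsk, a lysosomal sulfatase, had a probe that was above background in WSB/EiJ only beside a probe that was 2.20-fold lower there. In Gon4l, a transcriptional regulator, 3 probes gave -1.59, 1.38 and 5.54. For these genes no single direction of the strain difference can be given, and whether sequence variants lie under the probes was not tested.

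**Figure D2:**
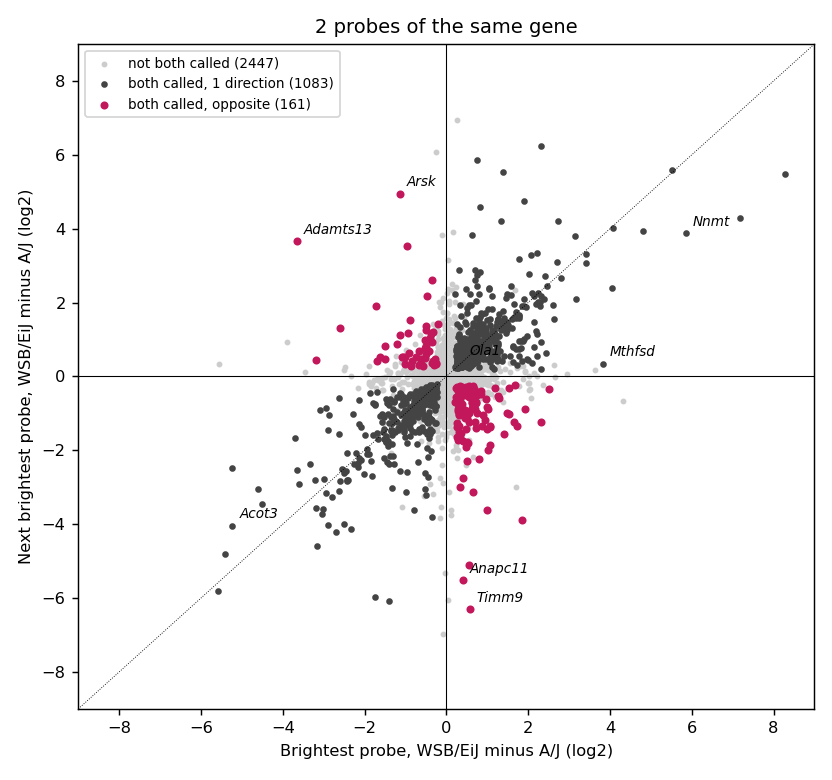
Strain difference (log2, WSB/EiJ minus A/J) at the brightest probe of a gene against that at its next brightest probe, 1 point per gene with at least 2 tested probes. Where both probes passed, 87.1% of the points had the same sign. Of the labelled genes, Timm9, Anapc11, Adamts13, Arsk and Mthfsd lie far from the diagonal. Ola1 lies near it, since its disagreeing probe is a dimmer one that is not drawn.

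Genes that differ between male and female liver separated the strains, although all animals were male. Of 14 tested genes known as higher in females, 11 were lower in WSB/EiJ and 1 was higher, with a median of -3.10. Of 18 genes known as higher in males, 15 were higher and 1 lower, with a median of 1.11. These counts stand beside 31.3% higher and 19.4% lower over all genes, and they were the same or within 2 genes under each of the other scalings. Among the female-biased members Cyp2b13, a steroid-metabolising cytochrome, had 8.91, 7.09, 10.41 and 8.18 in A/J and was above background on no WSB/EiJ array, at least 37.0-fold lower. Cyp2b9, a near copy of it, had 10.73, 9.01, 10.86 and 9.59 against 5.49, 5.96, 6.82 and 6.84 (difference -3.77 ± 0.47, adjusted p = 0.000292). A/J was above WSB/EiJ on every array for both. Cyp3a16 was 4.33-fold lower with little spread. The member that was higher was Sult1e1, already described, and Cyp2a4 (-0.33 ± 0.29) and Cyp17a1 (0.43 ± 0.24) did not pass.

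On the male-biased side Moxd1, a monooxygenase-like protein, had 2.40, 2.20, 1.56 and 4.37 in A/J, where 1 of 4 arrays was above background, and 12.13, 11.03, 10.61 and 11.51 in WSB/EiJ. Cyp7b1, the oxysterol 7-alpha-hydroxylase, had 13.78, 14.45, 14.03 and 13.84 against 16.80, 16.81, 16.84 and 16.69, 6.77-fold higher (adjusted p = 3.13e-06). Gstp1, a glutathione transferase, was 6.48-fold higher (adjusted p = 3.31e-07), Elovl3, a fatty acid elongase, 6.02-fold and Slco1a1, an organic anion uptake transporter, 2.95-fold. Each of these genes was separated between the strains on all arrays. Susd4, a complement regulator, was the member that was lower, by 0.54 on the log2 scale, and Hsd3b5, a steroid dehydrogenase, gave 0.12 ± 0.19. Of 11 major urinary protein genes, which encode pheromone carriers and are near copies of each other, 9 were higher and 0 lower, a count that fell to 6 under quantile normalization and 4 under spike-in scaling. Mup21 was 3.65-fold, Mup5 2.70-fold and Mup20 1.49-fold higher. The summed signal of the Mup genes was 1590000 to 2090000 in A/J and 2580000 to 2720000 in WSB/EiJ.

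**Figure D3:**
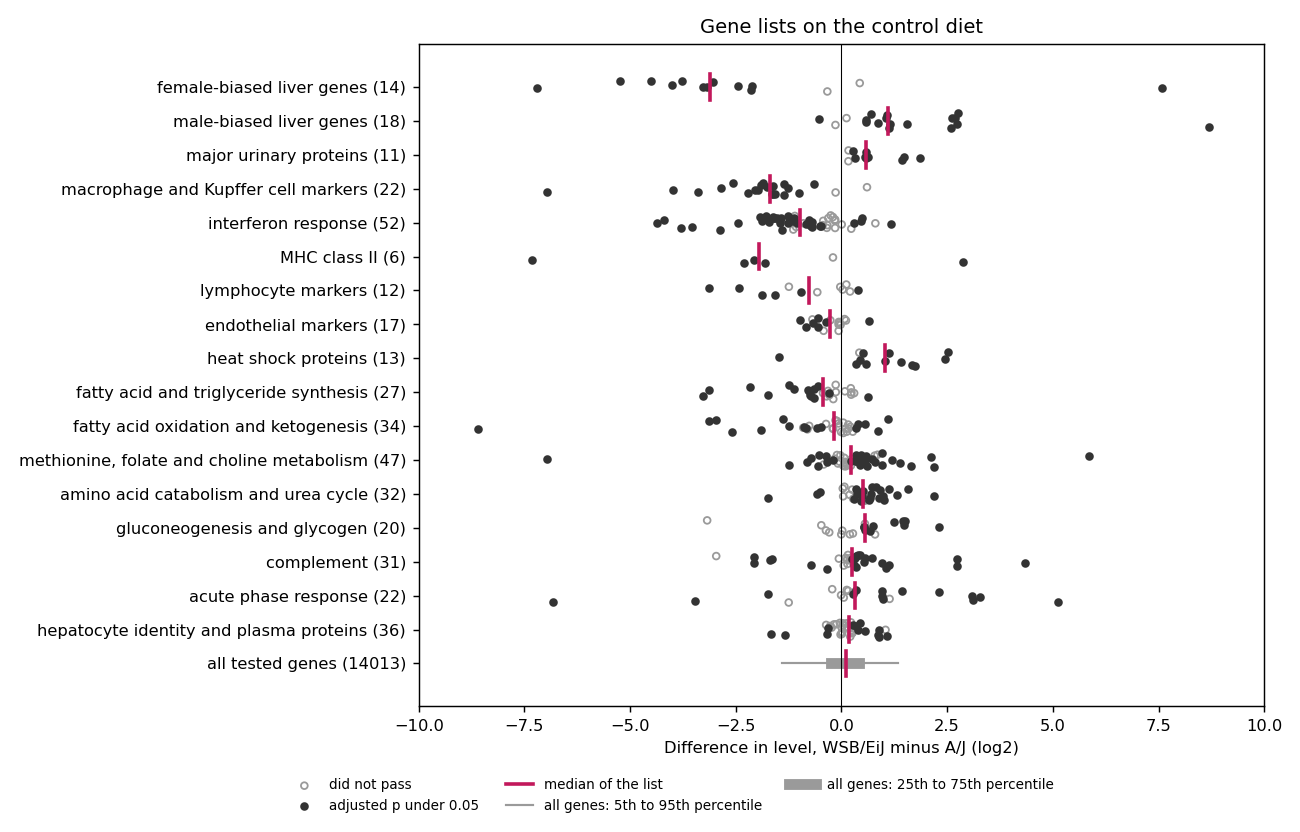
Strain differences (log2, WSB/EiJ minus A/J) of the tested members of 17 gene lists, 1 point per gene, with filled points for an adjusted p under 0.05 and a bar at the median. The band at the bottom gives the range of all 14013 tested genes, beside which the medians of female-biased genes (-3.10) and macrophage markers (-1.70) lie far to the left.

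Markers of macrophages and Kupffer cells were lower in WSB/EiJ almost without exception. Of 22 tested, 20 were lower and 0 higher (median -1.70), against 19.4% lower over all genes, and 20 were lower under each of the other scalings and without any single array. Their summed signal was 47600 to 77800 in A/J and 19100 to 23800 in WSB/EiJ. In bulk tissue, fewer cells of a type and less RNA per cell cannot be told apart. Marco, a scavenger receptor, had 12.27, 11.85, 10.09 and 11.37 in A/J and 7.81, 7.18, 7.32 and 7.35 in WSB/EiJ, 15.8-fold lower (adjusted p = 0.000108). Clec4f, a lectin that is specific to Kupffer cells, was 3.13-fold lower (12.58, 12.69, 12.17 and 12.46 against 10.93, 10.68, 10.73 and 10.97). Timd4, the phosphatidylserine receptor of long-lived Kupffer cells, was 10.5-fold lower. The pan-macrophage markers Adgre1 and Cd68 were 4.61-fold and 3.62-fold lower at the brightest probe, and lower on both of their probes. None of these genes overlapped between the strains. C1qa, a complement component made by macrophages, was 4.21-fold lower. Trem2, a receptor of lipid-associated macrophages, did not pass (-0.14 ± 0.44).

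Other leukocyte markers moved less uniformly, beside 31.3% higher and 19.4% lower over all genes. Of 12 lymphocyte markers 5 were lower and 1 higher. Cd79b, of the B cell receptor, was at least 6.90-fold lower, and the T cell genes Cd3g and Cd2, each above background on 1 of 4 WSB/EiJ arrays, were 5.41-fold and 3.70-fold lower. The summed lymphocyte signal nevertheless overlapped, at 10100 to 16000 in A/J and 10300 to 15100 in WSB/EiJ. Among 6 neutrophil markers 2 were higher (Camp, 2.40-fold, and Ly6g, 1.58-fold) and 3 lower, including the calprotectin subunit S100a8, which was above background on no WSB/EiJ array. Of 17 endothelial markers 6 were lower and 1 higher; Kdr, the VEGF receptor, was 1.98-fold lower at its brighter probe, while its other probe gave 0.13, and Stab1, a scavenger receptor of sinusoidal endothelium, was 1.58-fold higher.

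Genes that interferons induce were mostly lower in WSB/EiJ on the control diet. Of 52 tested, 31 were lower and 4 higher, with a median of -0.97, which became -0.70 without A/J replicate 4, and over all genes 19.4% were lower. Mx1, the antiviral GTPase that is non-functional in many laboratory strains, had 6.35, 6.55, 5.76 and 6.63 in A/J and was above background on no WSB/EiJ array, at least 7.37-fold lower. Ifi44l was at least 4.18-fold lower and Eif2ak2, the kinase that senses double-stranded RNA, 2.64-fold lower (8.92, 8.99, 8.93 and 9.28 against 7.53, 7.62, 7.69 and 7.67). The guanylate-binding protein Gbp3 was 11.6-fold lower. Tgtp2, an interferon-inducible GTPase, ranged from 10.31 to 14.29 in A/J against 7.46 to 8.32 in WSB/EiJ, and its difference of -4.19 was -3.46 without A/J replicate 4 and -4.78 without replicate 3. The A/J arrays thus disagreed among themselves on part of this list, and replicates 2 and 4 were the highest for Tgtp2, Gbp3 and the class II genes. The members that were higher were Dhx58 (2.27-fold), Bst2 (1.41-fold), Stat2 (1.39-fold) and Oas1b (1.23-fold). Of these, only Dhx58 passed as higher under quantile normalization, where Oas1b gave -0.02.

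Of 6 MHC class II genes, which present peptides on antigen-presenting cells, 4 were lower and 1 higher. Here and in the families below, 19.4% of all genes were lower and 31.3% higher. H2-Eb1 had 11.96, 13.49, 11.02 and 13.29 in A/J and 5.27, 4.71, 5.71 and 4.82 in WSB/EiJ. H2-DMb1, H2-DMa and the invariant chain Cd74 were 4.95-fold, 4.20-fold and 3.51-fold lower. H2-Ab1 gave -0.20 ± 0.44, with A/J from 9.54 to 11.60 and WSB/EiJ from 10.17 to 10.85. H2-Ea, the partner of H2-Eb1, went the other way: it was above background on no A/J array and at 4.89 to 5.68 in WSB/EiJ, at least 3.74-fold higher. Of 27 class I genes 7 were higher and 8 lower (12 lower after quantile normalization), among them H2-T9 (3.68-fold higher), H2-T24 (1.73-fold higher) and H2-D1 (2.31-fold lower). These loci are among the most polymorphic of the genome and hold near copies, and whether their haplotypes alter probe binding was not tested. In the Ly6 family 4 of 9 genes were lower and 2 higher (0 higher under spike-in scaling). The lower ones were led by Ly6a, Ly6c1 and Ly6e (7.37-fold lower). Of 10 Schlafen and NAIP/NLR genes 4 were lower (7 after quantile normalization) and 0 higher; Naip6 was at least 2.79-fold lower, Slfn2 was 4.77-fold lower with 2 of 4 WSB/EiJ arrays above background, and the probes of Nlrp12 had opposite signs.

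**Figure D4:**
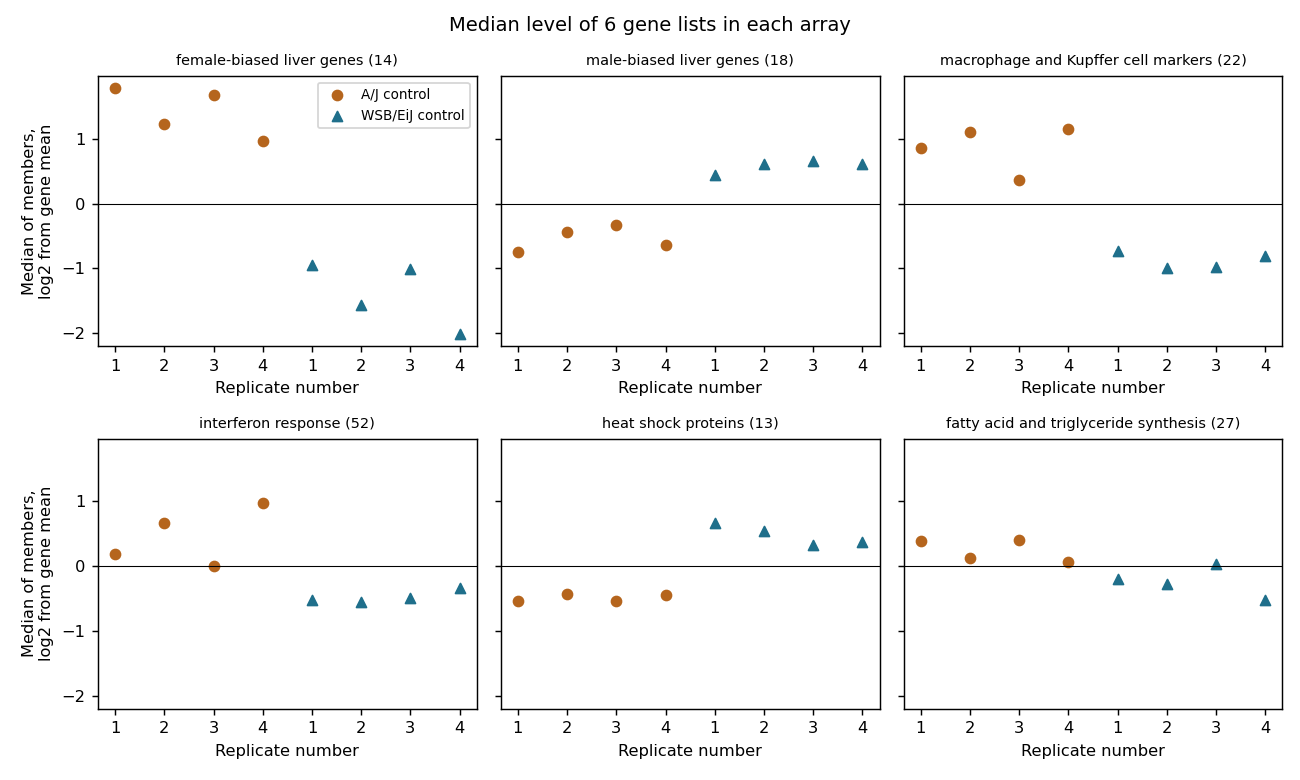
Median over the members of a gene list of the level on each array minus the gene's mean over the 8 arrays (log2), with 1 point per array for A/J and WSB/EiJ. Female-biased, macrophage and heat shock lists separate the strains on all arrays, and A/J arrays spread widely in the interferon list.

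Heat shock proteins, the chaperones under control of the factor HSF1, were higher in WSB/EiJ. Of 13 tested, 11 were higher and 1 lower (median 1.02), against 31.3% higher over all genes, and 7 were higher under quantile normalization and 7 under spike-in scaling. Hspb1, the small heat shock protein HSP25, had 10.47, 10.83, 10.09 and 11.60 in A/J and 14.07, 12.98, 13.05 and 12.95 in WSB/EiJ, 5.71-fold higher (adjusted p = 0.000589). Hspa1a, the inducible HSP70, had 7.91, 8.44, 7.75 and 8.35 against 11.15, 11.39, 9.86 and 9.89, 5.50-fold higher, and its probe may also read the near copy Hspa1b. Neither gene overlapped between strains. Hsp90aa1 was 3.34-fold higher, and Hsph1, an exchange factor of HSP70, 3.17-fold higher with both probes agreeing (1.67 and 1.60). The mitochondrial co-chaperonin Hspe1 was 2.66-fold higher at its brightest probe and higher on all 3 probes. Cryab, the crystallin-type small heat shock protein, was 2.81-fold lower, with A/J replicate 4 at 10.32 above the other A/J arrays at 8.72 to 8.98.

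Because these members moved together, the stretch before their transcription start is shown for 3 of those that hold a match to a pair of inverted GAA units of the heat shock element, spelled GAANNTTC or TTCNNGAA and searched on both strands. Windows of 250 bases from RefSeq (GRCm38.p6) were found for 9 of the 13 tested members. A match lay in at least 1 window of 6 of these genes, against 14.5% of all 27025 genes with a window. Bag3, Dnajb1 and Hspb8 had none. Of all 32851 windows 12.8% held a match. The members were listed as genes under HSF1 control, so their share of matches is no result about the strains. The sequences read towards the start site, with matches in capitals.
Hspe1, chr1:55087898-55088147, plus strand: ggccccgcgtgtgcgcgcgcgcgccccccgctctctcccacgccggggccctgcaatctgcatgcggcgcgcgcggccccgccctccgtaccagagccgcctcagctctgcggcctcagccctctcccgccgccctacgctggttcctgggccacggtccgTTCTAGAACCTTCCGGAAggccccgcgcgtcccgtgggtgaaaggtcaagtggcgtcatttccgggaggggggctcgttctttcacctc
Hspb1, chr5:135887669-135887918, plus strand: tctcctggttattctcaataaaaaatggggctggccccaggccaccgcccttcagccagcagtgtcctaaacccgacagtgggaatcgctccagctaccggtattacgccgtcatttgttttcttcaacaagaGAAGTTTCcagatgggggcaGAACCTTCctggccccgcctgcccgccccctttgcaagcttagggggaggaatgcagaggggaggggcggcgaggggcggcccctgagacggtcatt
Hsph1, chr5:149636337-149636586, minus strand: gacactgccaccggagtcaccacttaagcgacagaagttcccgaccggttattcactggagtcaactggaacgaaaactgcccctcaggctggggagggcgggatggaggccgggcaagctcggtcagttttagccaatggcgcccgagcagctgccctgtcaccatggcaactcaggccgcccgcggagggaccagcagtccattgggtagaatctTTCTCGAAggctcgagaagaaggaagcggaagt
Hspe1 held 3 overlapping matches, 79 to 89 bases before the start, Hspb1 held 2 matches, at 117 and 97 bases, and Hsph1 held 1 at 33 bases. Windows with 2 or more matches were 1.46% of all windows. The sequences are of the reference assembly, not of either strain, and a match describes the letters and not a bound site.

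Genes of fatty acid and triglyceride synthesis that passed were lower in WSB/EiJ with 1 exception. Of 27 tested, 14 were lower and 1 higher (median -0.44), beside 19.4% lower over all genes. Scd1, the stearoyl-CoA desaturase, had 15.13, 14.57, 15.64 and 14.63 in A/J and 12.20, 11.15, 11.43 and 12.13 in WSB/EiJ, 9.62-fold lower (adjusted p = 6.16e-05). Every A/J array was above every WSB/EiJ array. Pnpla3, a lipid droplet acyltransferase and lipase, was above background on no WSB/EiJ array and at least 2.43-fold lower. The phosphatidate phosphatase Lpin1 was 4.51-fold and the elongase Elovl5 2.16-fold lower, while Fasn, the fatty acid synthase, was 1.65-fold lower with overlapping strains and failed the test when any of 4 single arrays was left out. Agpat2, an acyltransferase of phosphatidate synthesis, was the member that was higher, 1.55-fold. Of 34 genes of fatty acid oxidation and ketogenesis 11 were lower and 5 higher, the latter falling to 3 without A/J replicate 2 or WSB/EiJ replicate 1 or 3. After quantile normalization 18 were lower and 2 higher, and under spike-in scaling 16 and 2. The lower ones included Cyp4a14, Fgf21, a hormone of the fasted liver (8.14, 9.44, 9.40 and 8.29 against 6.04, 6.78, 4.72 and 5.16), Acot2 (3.75-fold) and the pantetheinase Vnn3 (2.62-fold). The higher ones included Angptl4, an inhibitor of lipoprotein lipase, and the mitochondrial proteins Cpt2 and Slc25a20, at 1.81-fold, 1.46-fold and 1.27-fold. PPAR-alpha is known to induce genes on both sides of that division, and its part in these differences was not tested.

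Of 23 lipid droplet and PPAR-gamma genes 6 were higher and 5 lower (3 higher under spike-in scaling). The fat storage-inducing proteins took opposite directions: Fitm1 was 8.56-fold higher (5.56, 5.81, 6.80 and 6.98 against 9.26, 9.29, 9.49 and 9.52) and Fitm2 5.62-fold lower at its brighter probe, with 0.27 at the other. Pparg itself was 4.27-fold lower and Mogat2, a monoacylglycerol acyltransferase, 3.47-fold higher; Hsd17b13, a droplet-bound dehydrogenase, was 1.78-fold higher. Among 29 lipoprotein genes 9 were higher and 6 lower beside 31.3% and 19.4% of all genes, but 5 were higher and 12 lower after quantile normalization and 3 higher and 8 lower under spike-in scaling, and the median of 0.10 turned to -0.18 after quantile normalization. Those that passed included Apoc2, the cofactor of lipoprotein lipase (2.44-fold higher), and the antioxidant esterases Pon1 and Pon3 (2.32-fold and 2.89-fold lower). Vldlr, the VLDL receptor, was above background on no WSB/EiJ array and at least 12.7-fold lower. Cholesterol synthesis had the smallest share of called genes among the lists, 5 of 23. Sc5d, Stard4 and Hsd17b7 were lower, and 2 genes including Acat2 were higher, with 4 higher without WSB/EiJ replicate 4 and 6 lower under spike-in scaling. Bile acid genes were split, with 10 higher and 9 lower of 32, beside 31.3% and 19.4% of all genes. After quantile normalization or spike-in scaling 5 or 3 were higher and 13 lower. Cyp7a1, which catalyses the first and limiting step from cholesterol to bile acids, had 12.11, 11.92, 12.25 and 12.49 in A/J and 9.74, 10.14, 10.30 and 8.71 in WSB/EiJ, 5.54-fold lower. The oxysterol hydroxylase Cyp39a1 was 15.7-fold lower, the cholesterol exporter Abcg8 2.98-fold lower, Cyp8b1 1.51-fold higher, and the canalicular transporters Abcg2 and Abcb11 (the bile salt export pump) 2.31-fold and 2.05-fold higher. Cyp7b1, of the alternative pathway, went with the male-biased genes as described.

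Some genes of methionine, folate and choline metabolism, the pathway that the deficient diet of the series limits, already differed on the adequate diet. Of 47 tested genes 21 were higher and 9 lower (63.8% in either direction beside 50.7% of all genes). The median of 0.23 became -0.07 under spike-in scaling, where 10 were higher and 11 lower. That is near the share of all genes, of which 6190 of 14013 passed there. The list as a whole thus has no settled direction, and its excess of called genes depends on the scaling. Nnmt and Folr2 were its extremes. Gnmt, glycine N-methyltransferase, which disposes of excess S-adenosylmethionine, had 16.82, 16.39, 16.73 and 16.22 in A/J and 17.65, 17.66, 17.82 and 17.77 in WSB/EiJ, 2.27-fold higher. Amt, of the glycine cleavage system, was 4.32-fold higher, and Chka, the first kinase of phosphatidylcholine synthesis from choline, 3.15-fold higher with 3 of 4 probes passing. Pemt, which makes phosphatidylcholine by methylation, was lower by 0.19, close to the threshold (adjusted p = 0.0482). Probes disagreed for Ahcy, which splits S-adenosylhomocysteine (-1.25, 0.50 and 0.29), and for Bhmt, betaine-homocysteine methyltransferase (0.61, -0.38, -0.16 and -0.78), so neither has a settled direction.

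Genes of amino acid breakdown that passed were mostly higher in WSB/EiJ. In amino acid catabolism and the urea cycle 21 of 32 genes were higher and 3 lower (median 0.50), beside 31.3% and 19.4% of all genes, with 12 higher and 6 lower after quantile normalization and 11 higher and 3 lower under spike-in scaling. Acmsd, which diverts tryptophan breakdown from NAD synthesis, was 4.54-fold higher (8.48, 8.16, 8.19 and 8.09 against 10.62, 10.16, 10.67 and 10.22), Tat, tyrosine aminotransferase, 2.96-fold and Sdsl, a serine dehydratase-like enzyme, 2.49-fold higher. The lower members were Glul, the glutamine synthetase of pericentral hepatocytes (3.35-fold), Oat and Haao (1.48-fold and 1.42-fold). Of 20 genes of gluconeogenesis and glycogen 10 were higher and 0 lower, beside the same shares of all genes, and 4 were lower without A/J replicate 4. After quantile normalization 6 were higher and 3 lower, and under spike-in scaling 6 and 4. G6pc, glucose 6-phosphatase, had 13.89, 13.64, 13.97 and 13.37 against 15.75, 14.91, 14.98 and 15.20 (2.82-fold), and Pck1, which encodes the cytosolic PEP carboxykinase, was 2.76-fold higher. The phosphatase subunit Ppp1r3b was 2.78-fold, the insulin receptor substrate Irs1 2.36-fold and the branching enzyme Gbe1 1.67-fold higher. Irs1 and Gbe1 each had a further probe that did not pass. Igfbp1, a plasma protein repressed by insulin, was 4.92-fold higher.

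Stress-response lists held genes in both directions, and their counts depend on the scaling. Over all genes 31.3% were higher and 19.4% lower. Of 23 genes of amino acid and unfolded protein stress 12 were higher and 4 lower (2 without A/J replicate 3 or WSB/EiJ replicate 2 or 3); Asns, asparagine synthetase, was 24.5-fold higher (6.17, 6.27, 5.76 and 7.72 against 11.57, 10.78, 10.41 and 11.61) and the chaperone Calr 1.99-fold higher. The higher genes of that list were 7 after quantile normalization and 5 under spike-in scaling, and its median of 0.38 was -0.03 after the former. Of 17 Nrf2 targets 10 were higher and 1 lower, and 6 or 5 were higher after quantile normalization or spike-in scaling, with Nqo1 2.66-fold, Ephx1 2.02-fold and Txnrd1 1.74-fold higher. Among 17 p53 targets 5 were higher and 2 lower (median 0.24), a share of higher genes near that of all genes, and 1 was higher and 5 lower under spike-in scaling (median -0.06), and Gadd45b, a stress-induced gene, was 9.79-fold lower, while Perp and Ei24 were 1.53-fold and 1.45-fold higher. Metallothionein Mt2 spread widely in WSB/EiJ, 14.11 to 17.16 against 11.44 to 13.35 in A/J, and was 9.65-fold higher.

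Drug metabolism was split between members. Its counts stand beside 31.3% higher and 19.4% lower over all genes, and the shares of cytochromes and glutathione genes were near these. Of 31 cytochromes 11 were higher and 7 lower, with 6 higher under spike-in scaling: Cyp3a13 was 4.63-fold and Cyp2u1 3.56-fold higher, and Cyp3a11 4.02-fold lower (17.23, 16.87, 17.13 and 17.01 against 15.14, 15.09, 15.07 and 14.90). Cyp3a11 and Cyp3a16 are close copies with nearly the same difference. Cyp2a22 was 20.9-fold lower with 2 of 4 WSB/EiJ arrays above background. Of 19 UDP-glucuronosyl and sulfotransferases 10 were higher and 5 lower. Sult1c2 had 10.61, 9.94, 10.72 and 9.45 in A/J and 2.87, 3.99, 3.63 and 3.15 in WSB/EiJ, where 1 of 4 arrays was above background, and Ugt2b1 was 4.20-fold higher. Of 28 glutathione genes 10 were higher and 7 lower (6 higher under spike-in scaling), with Gsto1 2.22-fold higher and Gstt1 3.30-fold lower at its brighter probe.

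Plasma proteins showed single large differences without a shared direction, and their counts stand beside 31.3% higher and 19.4% lower over all genes. Complement had 16 members higher and 6 lower of 31, with 7 higher and 10 lower after quantile normalization, where the median of 0.25 turned to -0.12. C6 and C9 of the membrane attack complex were 6.63-fold and 2.09-fold higher. In the acute phase list 11 of 22 were higher and 3 lower: besides Orm3, Saa1, serum amyloid A, was 8.50-fold higher with a wide WSB/EiJ spread (15.79, 17.44, 15.08 and 17.46 against 12.65, 13.45, 13.67 and 13.65), Lcn2, a siderophore-binding protein, 4.97-fold and Serpina3n 2.70-fold higher, and Apcs, serum amyloid P, 3.36-fold lower. Of 25 coagulation genes 5 were higher and 4 lower, but 3 were higher and 13 lower after quantile normalization, where the median of 0.11 turned to -0.23, and 2 and 7 under spike-in scaling. They included F12 (2.67-fold higher) and Fgb (1.73-fold lower); Proz had probes of opposite sign. Of 36 hepatocyte genes 9 were higher and 4 lower (2 lower without A/J replicate 1, 2 or 3 or WSB/EiJ replicate 1, 2 or 3), with a median of 0.17 that turned to -0.07 after quantile normalization, where 4 were higher and 10 lower. Fetub was 1.86-fold higher, and the carboxylesterase Ces1g and the cortisol-binding Serpina6 were 3.17-fold and 2.54-fold lower. In iron handling 8 of 23 were higher (3 under spike-in scaling) and 6 lower: beside Hamp2, Alad of haem synthesis was 3.21-fold lower and the transferrin receptor Tfr2 1.60-fold higher.

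Clock genes differed in both directions, beside 31.3% higher and 19.4% lower over all genes. Of 17 tested, 7 were higher and 3 lower, and 5 were lower without A/J replicate 4. Arntl and Clock, the positive arm, were 2.93-fold and 1.64-fold higher, and Cry1, above background on 1 of 4 A/J arrays, was 3.91-fold higher. Nr1d1, the repressor REV-ERB-alpha, was 4.43-fold lower (9.96, 9.70, 10.01 and 8.12 against 8.04, 7.84, 6.17 and 7.16). A/J replicate 4 was the lowest of its group for Nr1d1 and Dbp and the highest for Arntl. The time of sampling was not tested as a factor, because the labels do not give it.

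The remaining lists are given in brief, and their counts stand beside 31.3% higher and 19.4% lower over all genes. Cell cycle genes had 5 higher and 9 lower of 21, but 1 higher without A/J replicate 1 or 3 or WSB/EiJ replicate 1 and 3 without WSB/EiJ replicate 2 or 4, and 1 higher under spike-in scaling; Tk1 was 3.62-fold higher and Mcm6 and Ccnd1 were 2.71-fold and 1.81-fold lower. Cytosolic ribosomal proteins had 17 higher and 1 lower (Rpl32) of 33, but 0 higher and 14 lower under quantile normalization, so their small differences, such as 0.44 for Rpsa, have no settled sign. The respiratory chain list behaved likewise, with 9 higher and 3 lower of 26 against 0 and 8 under quantile normalization; its lower members included Ucp2 (3.11-fold) and Cox7a1 (2.25-fold), and Uqcrc1 was 1.39-fold higher. Of 27 stellate cell and matrix genes 5 were higher and 1 lower (Timp2, whose second probe did not pass), and 13 were higher without A/J replicate 4 and 2 under spike-in scaling. Col5a2, a fibrillar collagen, had 2.55, 3.34, 1.93 and 3.78 in A/J, with 1 of 4 arrays above background, and 10.31, 9.44, 9.84 and 8.98 in WSB/EiJ, and Col4a2 was 1.91-fold higher. Of 10 biliary markers 2 were higher, the cilium protein Pkhd1 (6.39-fold) and the duct factor Sox9 (4.08-fold), and 1, Cd24a, was lower, and 4 were higher without A/J replicate 4. Erythroid markers had 5 lower and 1 higher of 6, with Alas2 3.87-fold, Slc4a1 3.05-fold and Hbb-b2 1.79-fold lower, and 3 were lower without WSB/EiJ replicate 1.

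Markers of tissues next to the liver were measured as well, and their part in the results was not tested. Pancreas markers had 1 higher (Ctrb1, 1.53-fold) and 1 lower of 6, the latter Cela2a, at least 3.56-fold lower, with summed signals of 3420 to 5370 in A/J and 3310 to 4820 in WSB/EiJ. Of 2 adipose markers 1 was lower, Fabp4, at 10.33, 10.34, 10.14 and 12.25 in A/J and 8.96 to 9.42 in WSB/EiJ, and the adipose sum ranged from 1150 to 6710 in A/J against 530 to 697. A/J replicate 4 was again the array that stood apart. Of 3 mesothelial markers 1 was higher (Krt8, 1.31-fold) and 0 lower. Their summed signal, 51900 to 70000 in A/J and 67800 to 85300 in WSB/EiJ, came almost wholly from Krt8 and Krt18, keratins that hepatocytes also make, and 4 others of the list, among them Wt1 and Upk3b, were not tested.

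On the deficient diet the same strains were compared over 4 livers each that had eaten 0.17% methionine with no choline or folic acid, with all 14013 genes refitted over 16 arrays. There, 3078 genes were higher (22%) and 5874 lower (41.9%) in WSB/EiJ, and the strain difference itself changed with diet in 7692 genes (54.9%). Centring the 16 arrays on their medians gave 4162 higher and 3625 lower, so the excess of lower genes rests on the scaling as well. Of the 7110 genes that passed on the control diet, 3234 passed in the same direction on the deficient diet and 1479 in the opposite one. Of 344 genes at least 4-fold higher on the control diet 66.0% passed as higher on the deficient diet, and of 349 at least 4-fold lower 72.5% passed as lower. Of the 40 genes named by size, 37 had the same sign on the deficient diet and 36 passed in the same direction. They were chosen for their size on the control diet, so the size of the difference is not compared between diets over them. The others were Dct, Ly6a and Ly6c1. Ly6a changed from -6.37 to 2.22 and Ly6c1 from -3.69 to 0.55.

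Several lists that separated the strains on the control diet were arranged differently on the deficient diet. Over all genes 22% were higher and 41.9% lower there. Of 14 female-biased genes 11 were lower and 1 higher, and 10 genes were lower on both diets. Male-biased genes had 3 higher and 11 lower of 18, against 15 and 1 on the control diet, and all 11 Mup genes were lower. After median centring of the 16 arrays the male-biased genes had 5 higher and 10 lower and 10 Mup genes were lower. Moxd1 went from 8.68 to 0.08, Elovl3 from 2.59 to -2.21 and Hsd3b5 from 0.12 to -4.34. The interferon list had 27 higher and 7 lower where it had 4 and 31, and the macrophage markers 11 higher and 7 lower where they had 0 and 20. Among the latter Cd68 was higher on the deficient diet (1.12) and Marco, Timd4, Clec4f and Folr2 were lower again (-1.78, -2.61, -2.14 and -6.46 there). Heat shock genes had 4 higher and 3 lower, and 6 and 1 after median centring. The interferon list then had 31 and 4 and the macrophage markers 11 and 7. For the lists, the change between diets was not tested as such.

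**Figure D5:**
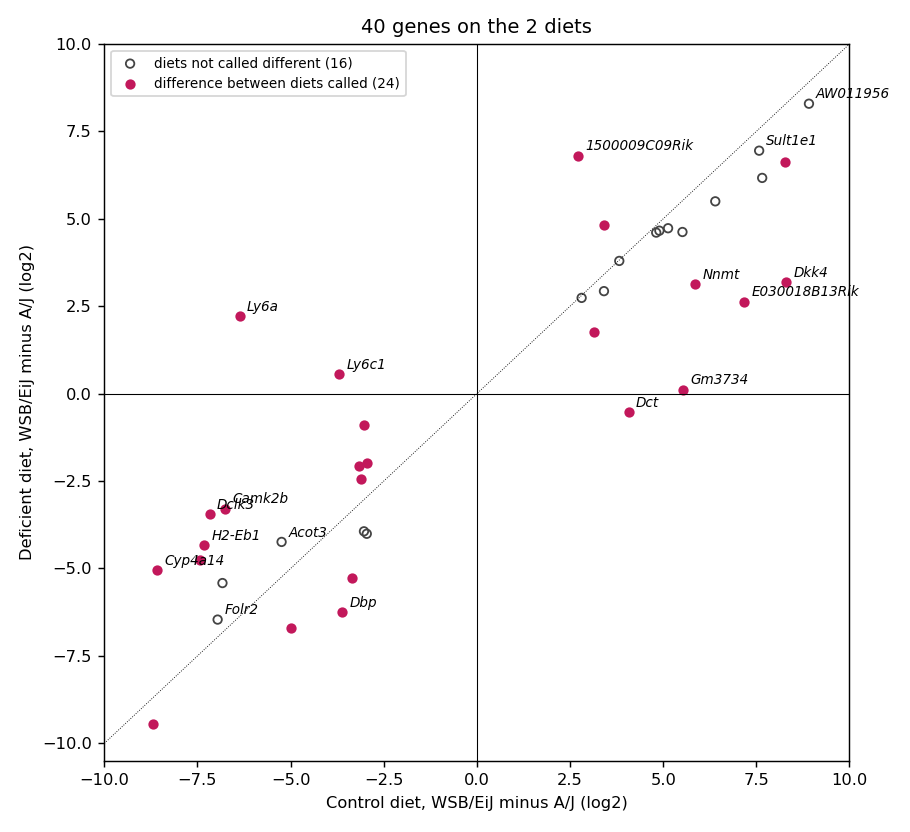
Strain difference (log2, WSB/EiJ minus A/J) on the control diet against that on the deficient diet, for the 40 genes named by size only. Each gene is 1 point, filled where the difference between diets was called. Of these genes 37 lie in the quadrants of equal sign.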

How the data were processed

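Total RNA of 24 livers was labelled with Cy3 and hybridised to single-colour 60-base Agilent arrays, 8 per slide on 3 slides. The deposited intensity values are the scanner's processed signals, which Agilent Feature Extraction 10.7 had background-subtracted, per the submitters' processing notes and the file headers. The authors also deposited a table of normalized values, used only as an alternative on the log2 scale. Its log2 ratio to the processed signal hardly varied within any of the 8 arrays (standard deviation of 5.11e-08 to 5.37e-08). The table is thus the processed signal times a constant for each array. How that constant was chosen is not given in the sources used here. Control spots and outlier spots (1146 over the 8 arrays) were left out, spots of a probe averaged, log2 taken and each array's 75th percentile subtracted, with 7.901 added to all levels. Probes were named through accessions and symbols of RefSeq's gene table (32931 of 55681 probes). Tested were 18541 probes well above background on all 4 arrays of a strain, each gene by its brightest, 14013 genes, in limma 3.58.1 (R 4.3.3; lmFit and eBayes on 8 arrays) with Benjamini-Hochberg adjustment over all genes. Probe positions are those in the files (mm9). The steps were tested on simulated data.

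The members and the 44 gene lists were chosen with earlier results of these data known. Of 1049 list entries 913 were tested. Genes were named by rule: the 10 largest differences in each direction with all of several probes called, the 5 largest with a single tested probe, the 5 largest bounds, the 6 widest probe disagreements, up to 3 members of each list by adjusted p, and known alleles of the strains. Genes outside the rule, which cover the examples named beyond it in each list (Cyp2b9, Marco, Hspa1a, Lpin1, Fgf21, Gnmt, Cyp7a1, Saa1, Moxd1 and others), were chosen after their values were seen. Genes in families of near copies (Cyp2b, Cyp3a, Cyp4a, Mup, Orm, Saa, H2, Ly6, Gstp, Hspa1) may share signal. Some members of these lists are not reported here by name. The number of arrays limits the precision.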

Additional observations from a re-analysis of the deposited data

Results flagged for a closer look

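In groups of 4 arrays, a level was set apart when its gap to the nearest array was a large part of the range of the group (Dixon's 95% limit). Over 440 groups, those of the named genes in each strain, 23 held such an array, and chance alone gives about 1 in 20 groups. A/J replicate 4 was the array in 9 of them. It was low for Abcg8 (7.99, nearest 8.53), Hsd17b7 (9.57, nearest 10.01), Nr1d1 (8.12, nearest 9.70), Serinc2 (8.87, nearest 9.86), Susd4 (13.05, nearest 13.56) and Tmem14c (10.59, nearest 12.06). It was high for Cd24a (7.52, nearest 5.99), Cryab (10.32, nearest 8.98) and Fabp4 (12.25, nearest 10.34). A/J replicate 3 was low for Adgre1 (8.55, nearest 9.84) and Col4a2 (7.86, nearest 8.41) and high for Pkhd1 (5.64, nearest 5.38). A/J replicate 1 was high for AW011956 (2.17, nearest 1.38), where no A/J array was above background.

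WSB/EiJ replicate 3 was apart in 6 groups, high for Dbp (8.91, nearest 8.23), Gm10734 (10.96, nearest 10.65), Kdr (9.91, nearest 9.80) and Nnmt (12.84, nearest 12.69), and low for Clock (9.78, nearest 10.02) and Slco1a1 (13.15, nearest 13.29). WSB/EiJ replicate 4 was low for Pon1 (14.79, nearest 15.01) and Sc5d (13.28, nearest 13.80). Replicate 1 of that strain was high for Hspb1 (14.07, nearest 13.05), and replicate 2 was low for Ola1 (12.15, nearest 12.28).

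Over the 40 genes named by size, the strain difference on the deficient diet was tested against that on the control diet by an interaction term. It passed in 24, beside 54.9% of all genes tested. The genes were chosen for their size on the control diet, and the same values enter the term. A smaller difference on the deficient diet can therefore follow from that choice. The values are given gene by gene and are not read as a change over the set. Each value below is the difference on the deficient diet minus that on the control diet, on the log2 scale. The change pointed towards A/J, against a control-diet difference in favour of WSB/EiJ, for Gm3734 (-5.43), Dct (-4.61), Nnmt (-2.72) and Syngr1 (-1.37). Genes lower in WSB/EiJ on the control diet changed towards WSB/EiJ for Ly6a (8.59), Ly6c1 (4.25), Cyp4a14 (3.54), H2-Eb1 (2.98), Serinc2 (2.14), Camk1d (1.08), Ddah1 (0.96) and Slc38a6 (0.67). The difference was wider on the deficient diet for 1500009C09Rik (4.08), Meg3 (1.40), Dbp (-2.64), Ugt3a2 (-1.93) and Tmem14c (-1.72). For Dkk4 (-5.12), E030018B13Rik (-4.55), Serpina3a (-1.66), Dclk3 (3.73), Camk2b (3.48), Cd300e (2.69) and 5830417I10Rik (-0.76) 1 strain was above background on no control-diet array, so these values rest on signals not above background and give no size or direction of change.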

How the results depend on the processing

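The count of 7110 genes lay between 6182 and 7507 under other scalings, filters, variance models and slide blocks. The lowest, 6182, came without the background filter, where 23859 genes were tested instead of 14013, so the share of called genes was smaller. With unnamed probes included 9822 of 20446 passed. Leaving out 1 array gave 6351 to 7218 genes (3910 to 4314 higher, 2385 to 2904 lower). When 2-fold was also required the count was 2136 (1063 higher, 1073 lower). Spike-in scaling, chosen after seeing the data, gave 1712 higher and 4478 lower. The fit with the replicate number as a block gave 6195; same-numbered arrays did not deviate together (correlations of -0.062, 0.062, -0.113 and -0.029), so the numbers are not read as pairs. Genes with all of several probes called were 598 at an adjusted p under 0.01 (391 higher, 207 lower). On the deficient diet the lower genes were 3625 after median centring, and the median of all genes, -0.195, was 0.025 after median centring and -0.044 after quantile normalization. List medians changed sign in 13 of 44 lists under quantile normalization, 13 under normexp with quantile, 14 under spike-in scaling and 1 under median centring. Those farther from 0 than the spread between arrays were, under quantile normalization, complement -0.122, ribosomal -0.175, hepatocyte -0.066, mesothelial -0.047 and respiratory chain -0.131; under normexp with quantile -0.087, -0.184, -0.057, -0.038 and -0.132 in the same order; under spike-in scaling complement -0.053, ribosomal -0.076, hepatocyte -0.13, methionine and folate -0.068, p53 -0.062 and respiratory chain -0.099. The mesothelial median was -0.102 without the background filter and the biliary one -0.006 on slide 3 alone. Oas1b and Rpsa changed sign under quantile (-0.022, -0.04) and normexp with quantile (-0.024, -0.043). The mean over probes changed the sign of Anapc11 (-2.565), Arsk (1.905), Bhmt (-0.177), Ola1 (-1.705) and Timm9 (-2.87), and the probe with the smallest difference that of Adamts13 (3.656), Ahcy (0.287), Bhmt (-0.158), Fitm2 (0.265), Gbe1 (-0.019), Kdr (0.132), Nlrp12 (1.317) and Proz (-0.52). The cause was not tested. Signal over background limits 229 genes to a bound.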
